A study of Homo sapiens with 5 samples.

Results

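TNK2, MROH1, LEKR1 and PWWP3A are 4 genes that were selected on the size of their fall in JUN-activated mammary epithelial cells. They were grouped as falls outside the YAP target lists, and their absence from such lists was not checked here. TNK1, the closest relative of TNK2, was set beside them as a comparator. Together these genes make up 5 of the 23459 genes in the table of counts, and each of the 5 was found by its Entrez identifier. The 4 falls are the reason for the choice, so they are given here as a description and were not tested. TNK1 was taken as a relative of TNK2, and its difference was tested.

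The libraries come from MCF10A cells, an immortalised human mammary epithelial line that forms no tumours, which carried the synergistic activation mediator (SAM). SAM pairs a catalytically dead Cas9 fused to VP64 (dCas9-VP64) with MCP-p65-HSF1, an activator that binds MS2 loops in the guide RNA, and so raises transcription where a guide RNA places it. Both groups carried both SAM components and were grown in the same medium with EGF, insulin, hydrocortisone, cholera toxin and horse serum. The NTC group received a non-targeting guide (3 libraries), and the sgJUN#1 group a guide against the JUN promoter (2 libraries). SAM cells were picked as single clones before the guides were added. Neither the labels nor the study's methods say that both guides went into the same clone, and a difference between clones was not tested. No cells without a guide were among the 5 libraries. The study calls its replicates biological, but the labels do not tie these libraries to separate cultures, and the replicate number in the study's account of this comparison is not the number of NTC libraries in the labels. The p-values set the difference between the groups against the spread between these libraries. RNA was read from the 3′ ends of polyadenylated transcripts.

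TNK2, also called ACK1, is a non-receptor tyrosine kinase that binds the active form of the small GTPase CDC42, associates with clathrin and takes part in the trafficking and signalling of the EGF receptor. TNK1 is the other member of its kinase family. PWWP3A, formerly MUM1 and also called EXPAND1, is a chromatin protein with a PWWP domain, a fold that reads methylated histones, and it binds 53BP1 at DNA breaks. MROH1 belongs to a family named for HEAT repeats. LEKR1 is named for leucine, glutamate and lysine rich stretches, and its role is little known.

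Library totals ranged from 2455627 to 4988062 counts, and 13616 genes passed the filter on low counts. The targeted gene, JUN, had 25.03, 36.2 and 9.32 CPM (a gene's count after every library was brought to the same total) in NTC and 171.5 and 265.5 CPM in sgJUN#1. Its log2 fold change was 3.25 (SE 0.484) and the edgeR adjusted p-value 0.0733. That p-value was 7.36e-12 with DESeq2, 0.0144 with edgeR without NTC replicate 2 and 0.00121 with edgeR without NTC replicate 3, so whether JUN passed depended on the test and on which libraries were fitted. The 10 basal mammary markers summed to 1413 to 2546 CPM in NTC and 1717 to 3516 CPM in sgJUN#1, and the 6 luminal markers summed to 107.0 to 238.9 and 105.2 to 120.3 CPM. The sums cover members that differed in opposite ways, although none passed the threshold with edgeR on all 5 libraries. S100A2 had 118.8, 181.1 and 101.8 CPM in NTC and 946.7 and 338.8 CPM in sgJUN#1 (log2 fold change 2.27, edgeR adjusted p-value 0.130). ITGB4 had 118.8, 47.6 and 292.4 against 26.4 and 26.1 CPM (-2.55, edgeR adjusted p-value 0.459), and the luminal GATA3 75.4, 43.1 and 154.6 against 36.3 and 41.1 CPM (-1.25, edgeR adjusted p-value 0.556). S100A2 passed with DESeq2 (adjusted p-value 1.14e-06) and without sgJUN#1 replicate 2 (edgeR adjusted p-value 0.00209), and ITGB4 without NTC replicate 2 (edgeR adjusted p-value 0.0249). KRT14 was at no more than 3.26 CPM in any library. Markers of fibroblasts (5 genes) summed to at most 7.16 CPM, and those of endothelium (3 genes) to at most 10.99 CPM in any library. The 4 leukocyte markers reached 26.2 CPM in 1 NTC library and 6.19 CPM at most in sgJUN#1. The part of these markers in the results below was not tested.

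The promoter windows were read to show what sequence lies ahead of these genes. RefSeq (GRCh38.p14) gave 300-base windows, from 250 bases before an annotated start to 50 after it, for 4 of the 5 genes. TNK2 had 7 windows, PWWP3A 2, and LEKR1 and TNK1 1 each. Short words were sought on both strands, with N for any base. TGANTCA is a loose form of the AP-1 site bound by JUN with FOS proteins, since it allows any base at the centre. It was found in 1 of the 7 TNK2 windows, where it read TGAATCA, and in no window of LEKR1, PWWP3A or TNK1. Of all 35116 windows, 7.71% held it. GGAATG, the core word of TEAD factors, which carry YAP to DNA, was found in 3 of the 7 TNK2 windows and in the LEKR1 window, against 14.03% of all windows. TGACG, the first part of the site of CREB and ATF factors, was found in 2 TNK2 windows and in those of LEKR1 and TNK1, against 24.6%. TATAAA was found in 1 TNK2 window (11.5% of all windows), and GGGCGG in 4 TNK2 windows and 1 window each of the other 3 genes (45.0% of all windows). A narrower AP-1 form, TGACTCA, and the whole CREB site, TGACGTCA, were searched only after these matches were known, and neither was found in any of the 11 windows (4.95% and 1.85% of all windows). Several windows of TNK2 overlap or lie close together, so they are not separate observations.

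The 4 TNK2 windows that hold TGANTCA or GGAATG, the LEKR1 window with both GGAATG and 3 copies of TGACG, and the TNK1 window for comparison are printed 5′ to 3′ on the gene's strand. Capitals mark the AP-1, TEAD and CREB words just named, on either strand.
TNK2 chr3:195897242-195897541, minus strand: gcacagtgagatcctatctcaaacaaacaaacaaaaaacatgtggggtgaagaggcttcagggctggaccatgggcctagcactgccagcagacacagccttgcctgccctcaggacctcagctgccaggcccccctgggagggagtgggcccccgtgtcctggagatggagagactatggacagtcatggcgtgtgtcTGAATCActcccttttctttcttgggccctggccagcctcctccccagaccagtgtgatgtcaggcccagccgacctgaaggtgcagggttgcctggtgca
TNK2 chr3:195896726-195897025, minus strand: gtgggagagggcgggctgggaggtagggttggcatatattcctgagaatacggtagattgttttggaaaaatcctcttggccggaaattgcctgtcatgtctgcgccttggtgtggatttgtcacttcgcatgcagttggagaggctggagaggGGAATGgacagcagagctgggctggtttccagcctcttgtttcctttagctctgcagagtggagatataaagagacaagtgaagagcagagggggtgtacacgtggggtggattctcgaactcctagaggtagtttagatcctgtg
TNK2 chr3:195895299-195895598, minus strand: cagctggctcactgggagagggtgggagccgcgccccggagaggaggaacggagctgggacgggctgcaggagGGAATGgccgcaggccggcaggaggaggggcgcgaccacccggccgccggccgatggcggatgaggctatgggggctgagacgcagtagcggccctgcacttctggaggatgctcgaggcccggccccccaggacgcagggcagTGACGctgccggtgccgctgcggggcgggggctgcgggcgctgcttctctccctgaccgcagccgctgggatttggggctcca
TNK2 chr3:195894687-195894986, minus strand: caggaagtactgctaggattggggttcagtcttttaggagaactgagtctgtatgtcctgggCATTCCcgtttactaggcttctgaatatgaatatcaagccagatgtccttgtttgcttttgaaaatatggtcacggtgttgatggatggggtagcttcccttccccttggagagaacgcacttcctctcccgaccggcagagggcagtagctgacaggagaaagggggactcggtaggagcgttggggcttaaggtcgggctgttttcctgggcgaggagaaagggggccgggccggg
LEKR1 chr3:156826103-156826402, plus strand: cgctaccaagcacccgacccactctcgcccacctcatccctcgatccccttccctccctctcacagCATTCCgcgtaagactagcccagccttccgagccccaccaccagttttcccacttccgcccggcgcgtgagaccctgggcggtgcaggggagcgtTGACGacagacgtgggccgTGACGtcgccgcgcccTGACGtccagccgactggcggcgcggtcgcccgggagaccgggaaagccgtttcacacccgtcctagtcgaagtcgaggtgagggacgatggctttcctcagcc
TNK1 chr17:7380839-7381138, plus strand: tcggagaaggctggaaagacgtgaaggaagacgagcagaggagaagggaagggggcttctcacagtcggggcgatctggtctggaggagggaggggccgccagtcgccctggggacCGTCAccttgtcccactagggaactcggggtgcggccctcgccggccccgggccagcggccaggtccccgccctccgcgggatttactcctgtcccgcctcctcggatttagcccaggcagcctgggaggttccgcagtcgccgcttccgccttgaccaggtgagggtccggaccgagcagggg

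Positions count the annotated start base of each window as 0, so they cannot be compared between windows. In the TNK2 window beginning at 195897242, the TGANTCA match ran from base -51 to -45. In another TNK2 window, beginning at 195896726, the GGAATG match ran from -96 to -91. No TNK2 window held both words. In LEKR1 the GGAATG match ran from -184 to -179. A match is a description of letters and not a binding site, and the absence of one says only that the letters are not in that window. Neither PWWP3A window held a marked word. The first was 80.3% G and C with 49 CpG pairs, against medians of 58.7% and 14 over all windows, and the second was 36.3% with 1 pair. LEKR1 was at 67.3% with 33 pairs and TNK1 at 69.0% with 25, while the TNK2 windows ran from 51.7% to 76.3%.

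TNK2 (Entrez 10188, GRCh37 chromosome 3, 195590235 to 195638816, minus strand) stood above 98.7% of the tested genes by mean level in NTC and above 35.5% of them in sgJUN#1. It had 1848, 1447 and 2765 counts in NTC, or 508.3, 588.9 and 613.3 CPM, and 76 and 44 counts in sgJUN#1, or 15.69 and 15.74 CPM. The groups lay far apart, with the lowest NTC library 32.3 times the highest sgJUN#1 library. The mean went from 570.2 ± 55.0 CPM (SD, n = 3) to 15.7 ± 0.0401 CPM (SD, n = 2), which left 2.76% of the NTC level. On the log2 scale the fitted difference was -5.18 (SE 0.245). The SEs of TNK2, MROH1, LEKR1 and PWWP3A take no account of their selection for a fall. The 2 sgJUN#1 values lay closer together than their counting error, since their exact 95% Poisson intervals ran from 12.4 to 19.6 and from 11.4 to 21.1 CPM. Intervals of this kind cover counting error only.

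MROH1 (Entrez 727957, GRCh37 chromosome 8, 145202919 to 145316830, plus strand) had the next largest difference of the 4. It had 335.0, 462.8 and 593.4 CPM in NTC, from 1218, 1137 and 2675 counts, and 15.3 and 26.5 CPM in sgJUN#1, from 74 counts in each library. NTC libraries differed among themselves by 1.77 times and sgJUN#1 libraries by 1.73 times, a wider spread than for TNK2, yet the lowest NTC library was 12.7 times the highest sgJUN#1 library. The mean went from 463.7 ± 129.2 CPM (SD, n = 3) to 20.9 ± 7.92 CPM (SD, n = 2), or 4.50% of NTC. The fitted log2 fold change was -4.50 (SE 0.364).

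LEKR1 (Entrez 389170, GRCh37 chromosome 3, 156543270 to 156763918, plus strand) fell less steeply and stayed well measured in sgJUN#1. It had 722, 526 and 1151 counts in NTC (198.6, 214.1 and 255.3 CPM), and 213 and 100 counts in sgJUN#1 (43.96 and 35.8 CPM). The groups did not overlap, with a ratio of 4.52 between the lowest NTC and the highest sgJUN#1 library. Its mean of 222.7 ± 29.3 CPM (SD, n = 3) compares with 39.9 ± 5.79 CPM (SD, n = 2), and the fitted log2 fold change was -2.48 (SE 0.229).

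PWWP3A (Entrez 84939, GRCh37 chromosome 19, 1354710 to 1378430, plus strand) had the smallest difference of the 4. It had 222, 166 and 223 counts in NTC (61.1, 67.6 and 49.5 CPM), and 96 and 56 in sgJUN#1 (19.8 and 20.0 CPM). The sgJUN#1 libraries were almost level with each other and both lay below every NTC library, by a ratio of at least 2.47. The mean went from 59.4 ± 9.17 CPM (SD, n = 3) to 19.9 ± 0.157 CPM (SD, n = 2), and the fitted log2 fold change was -1.57 (SE 0.235). In bulk RNA such as this, fewer cells with a transcript and less of it per cell cannot be told apart, for any of these genes.

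**Figure D1:**
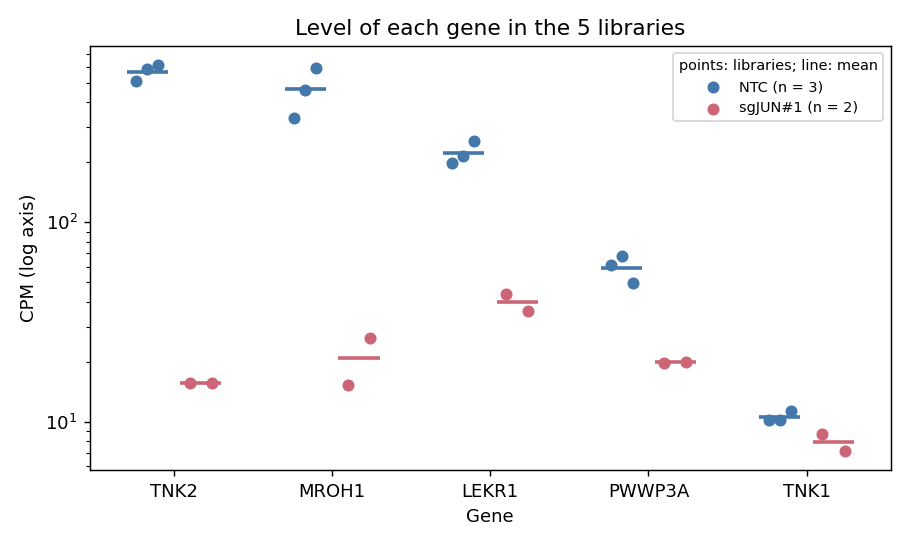
CPM (vertical log axis) of the 5 genes (horizontal axis) in each library, with blue points for NTC (n = 3), red points for sgJUN#1 (n = 2) and a line at each group mean. TNK2 and MROH1 drop from 335.0 to 613.3 CPM to 15.3 to 26.5 CPM, while TNK1 stays between 7.16 and 11.3 CPM.

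TNK1 (Entrez 8711, GRCh37 chromosome 17, 7283853 to 7293093, plus strand) was low in both groups. It had 37, 25 and 51 counts in NTC (10.2, 10.2 and 11.3 CPM), and 42 and 20 counts in sgJUN#1 (8.67 and 7.16 CPM). Both sgJUN#1 libraries lay just below the NTC libraries, as did those of 1740 tested genes, or 12.8%. The mean went from 10.6 ± 0.656 CPM (SD, n = 3) to 7.91 ± 1.07 CPM (SD, n = 2), and the log2 fold change of -0.41 (SE 0.301) did not pass the threshold of 0.05 (edgeR adjusted p-value 0.767, with 0.645 to 1.00 over the alternative fits in edgeR and DESeq2). Its 95% interval, from -1.08 to 0.27, allows anything from 0.473 to 1.21 times the NTC level. Between them, the 2 relatives changed their proportion: NTC libraries had 49.9, 57.9 and 54.2 TNK2 counts for each TNK1 count, and sgJUN#1 libraries 1.81 and 2.2. These are ratios of 3′ end counts, which by the design of the assay do not scale with transcript length, and the TNK2 part of them was chosen for its fall. TNK1 is overlapped at its 3′ end by PLSCR3 and TMEM256-PLSCR3 on the other strand, and whether strand was used in counting is not given in the sources used here, so its counts are uncertain.

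Set against all tested genes, 28 (0.206%) passed the edgeR threshold of an adjusted p under 0.05, of which 17 (0.125%) were lower in sgJUN#1, and 1141 had an unadjusted p under 0.05. The genes described were selected with these results known, so nothing is read from where they stand among them. The lowest 1% of log2 fold changes lay below -1.44 and the lowest 5% below -0.78. By that order TNK2 was number 2 from the bottom, MROH1 number 7, LEKR1 number 32 and PWWP3A number 114. TNK2 joined a steep fall to a high starting level. In NTC it was number 184 by mean CPM, and of the 183 tested genes above it 11 had a log2 fold change under -1 and 4 under -2, the lowest being COL8A1, a collagen chain, at -3.42. Counts of the 4 genes together made up 0.107%, 0.133% and 0.155% of the NTC libraries and 0.00920% and 0.00991% of the sgJUN#1 libraries.

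**Figure D2:**
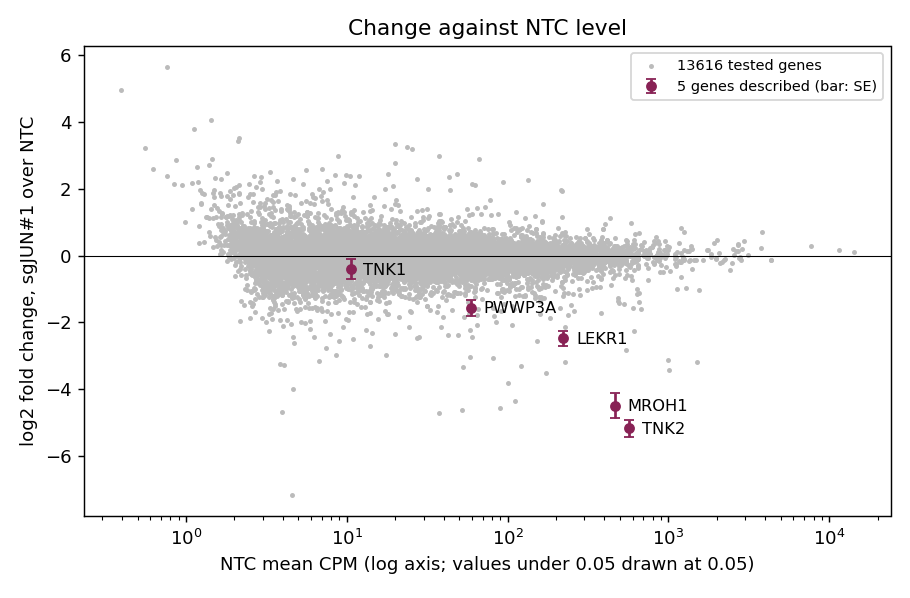
Log2 fold change of sgJUN#1 over NTC (vertical axis) against NTC mean CPM (horizontal log axis) for 13616 tested genes in grey, with the 5 genes in purple and bars for the SE. TNK2 at 570.2 CPM and MROH1 at 463.7 CPM lie at -5.18 and -4.50. Of all tested genes they were numbers 2 and 7 from the lowest log2 fold change. TNK1 at 10.6 CPM lies within the grey cloud.

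The genes next to each locus were compared to see whether the difference reached beyond the gene itself. For each gene the 3 nearest on either side among genes with a GRCh37 position were taken, 30 in all. Of these, 16 had enough counts to be tested and none passed the threshold with edgeR or with DESeq2. Among all tested genes 0.206% passed with edgeR, a share at which none in 16 says little. An unadjusted edgeR p under 0.05 was found for 1 of the 16. The lowest of the 16 log2 fold changes was -0.50 and the highest 0.35, around a median of 0.05.

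Around TNK2, TFRC, the transferrin receptor, had 129.3, 173.4 and 123.3 CPM in NTC and 194.8 and 165.7 CPM in sgJUN#1 (log2 fold change 0.35, SE 0.216), and SDHAP1, a pseudogene, had a log2 fold change of -0.29 (SE 0.263). MIR570, MUC20, MUC4 and LINC00885 had at most 5 counts in any library and were not tested. Around MROH1, MAF1, a repressor of RNA polymerase III, was at 55.8, 52.1 and 65.2 CPM in NTC and 42.1 and 39.4 CPM in sgJUN#1 (log2 fold change -0.50, SE 0.209, edgeR adjusted p-value 0.560), and HGH1 had 0.34 (SE 0.329). HSF1, the heat shock factor, lies there too, at 53.1 to 74.3 CPM in NTC and 65.5 to 84.0 CPM in sgJUN#1. A part of HSF1 is also in the MCP-p65-HSF1 activator that all the cells carry, so its counts are uncertain.

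Around LEKR1, 4 neighbours were tested. TIPARP, an ADP-ribosyltransferase induced by the aryl hydrocarbon receptor, had the lowest log2 fold change at -0.32 (SE 0.271), which was 0.07 without sgJUN#1 replicate 1. PA2G4P4 had the highest at 0.20 (SE 0.265), which was -0.13 without that library. LINC00886, the nearest at 8419 bases, had 97.7 to 109.5 CPM in NTC and 90.2 and 114.8 CPM in sgJUN#1, and its groups overlapped. Around PWWP3A, NDUFS7, a subunit of respiratory complex I that lies 5096 bases away, had the lowest at -0.46 (SE 0.282) and FAM174C the highest at 0.33 (SE 0.297). Around TNK1, the 3 tested neighbours ran from -0.20 (TMEM256, SE 0.253) to 0.19 (PLSCR3, SE 0.207). None of the 22518 genes with a GRCh37 position overlapped TNK2, MROH1, LEKR1 or PWWP3A, and genes without a position could not be checked.

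**Figure D3:**
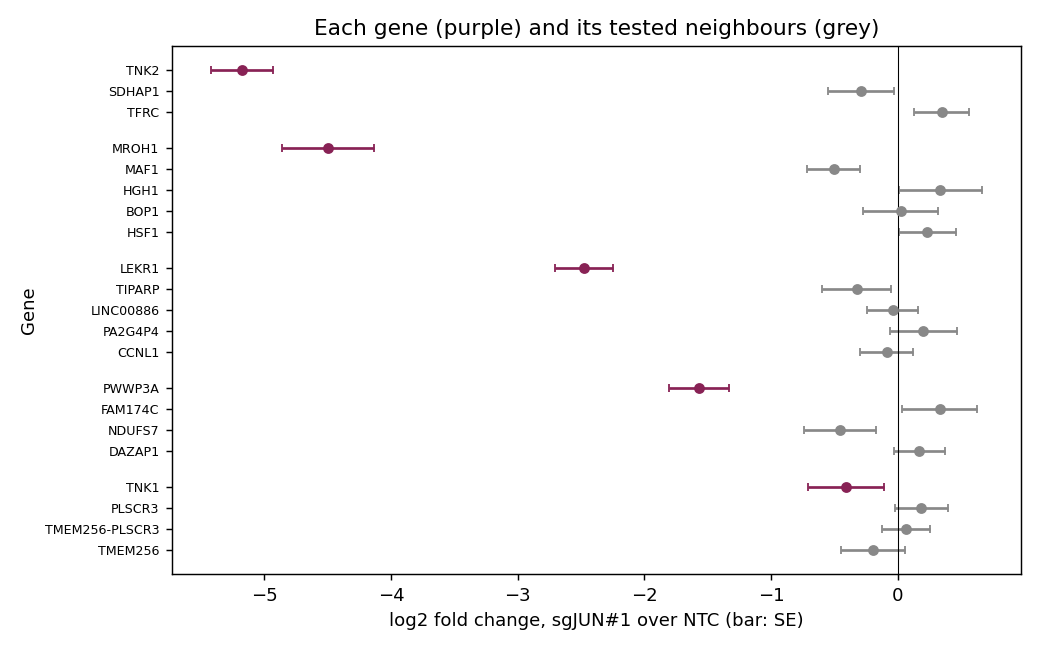
Log2 fold change of sgJUN#1 over NTC with its SE (horizontal axis) for each gene in purple and its tested neighbours in grey (vertical axis, 1 gene a line). The 16 neighbours lie between -0.50 and 0.35 at every locus.

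Other genes that share a role with the 5 were described as lists. None of the listed genes passed the threshold with edgeR or with DESeq2, as against 0.206% of all tested genes with edgeR, a share at which a count of 0 in lists of this size says little. An unadjusted edgeR p under 0.05 was found for 8.38% of all tested genes. The median log2 fold change of all tested genes was -0.0082, so lower and higher genes were near balance among them. The medians of the 5 lists all lay below that value, and the cause was not tested. Of 30 other non-receptor tyrosine kinases, 21 were tested, 14 of them with a lower level in sgJUN#1, the median log2 fold change was -0.17 against -0.01 for all tested genes, and 3 had an unadjusted edgeR p under 0.05. PTK2B had the lowest edgeR adjusted p-value of this list, 0.341. It had 87.7, 100.5 and 126.2 CPM in NTC and 68.5 and 48.3 CPM in sgJUN#1 (log2 fold change -0.84). The 2 largest log2 fold changes were in lowly counted kinases of immune cells. SYK had 1.93, 2.85 and 0.665 CPM in NTC and 5.78 and 3.58 CPM in sgJUN#1 (log2 fold change 1.51, edgeR adjusted p-value 0.517). TXK had 4.68, 4.48 and 12.9 CPM in NTC and 2.27 and 4.65 CPM in sgJUN#1 (log2 fold change -1.20, edgeR adjusted p-value 0.643). The most abundant were PTK2, the focal adhesion kinase, with means of 217.7 ± 59.5 CPM (SD, n = 3) in NTC and 187.9 ± 17.1 CPM (SD, n = 2) in sgJUN#1, and JAK1, the cytokine receptor kinase, at 127.6 to 139.3 and 137.7 and 157.8 CPM.

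Of 21 known partners and substrates of TNK2, 20 were tested, 11 of them lower in sgJUN#1, with a median of -0.03 and 2 at an unadjusted edgeR p under 0.05. CLTC, the clathrin heavy chain, had 377.3 to 511.9 CPM in NTC and 479.4 and 537.5 CPM in sgJUN#1. EGFR had 290.7, 389.5 and 673.4 CPM in NTC and 278.0 and 287.3 CPM in sgJUN#1, so both sgJUN#1 libraries lay just below the lowest NTC library. ERBB2, a receptor of the EGFR family, went from 16.2, 15.1 and 19.3 CPM to 8.67 and 10.7 CPM (log2 fold change -0.82, edgeR adjusted p-value 0.459), without passing the threshold. MERTK, a receptor of the TAM family, had the highest log2 fold change at 0.71 (edgeR adjusted p-value 0.660), and its groups overlapped.

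Of 23 other genes with a PWWP domain, 21 were tested, 17 of them lower in sgJUN#1, with a median of -0.23 and 1 at an unadjusted edgeR p under 0.05. ZCWPW1, a reader of histone methylation in meiosis, had -1.01 (edgeR adjusted p-value 0.593) and DNMT3B, a de novo DNA methyltransferase, -0.96 (edgeR adjusted p-value 0.662), both from levels of at most 8.14 CPM. HDGF, the most abundant, had 445.0 to 479.7 CPM in NTC and 352.8 and 423.9 CPM in sgJUN#1, and MSH6, a mismatch repair protein, 135.8 to 219.0 and 170.3 and 207.2 CPM. Of 15 genes of the 53BP1 response to DNA breaks, 14 were in the table and all 14 were tested, with 10 lower, a median of -0.14 and 0 at an unadjusted edgeR p under 0.05. MAD2L2 and SHLD2, both of the shieldin pathway that guards broken ends, had the largest differences of this list at -0.55 and -0.36, with overlapping groups. RAD50, at 430.6 to 553.6 CPM in NTC and 489.1 and 546.5 CPM in sgJUN#1, and RIF1, at 178.8 to 240.5 and 174.2 and 243.8 CPM, were the most abundant. Of 8 relatives of MROH1, 6 were in the table and 2 were tested, MROH8 with -0.30 and MROH5 with -0.17, which was 0.07 without sgJUN#1 replicate 1.

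**Figure D4:**
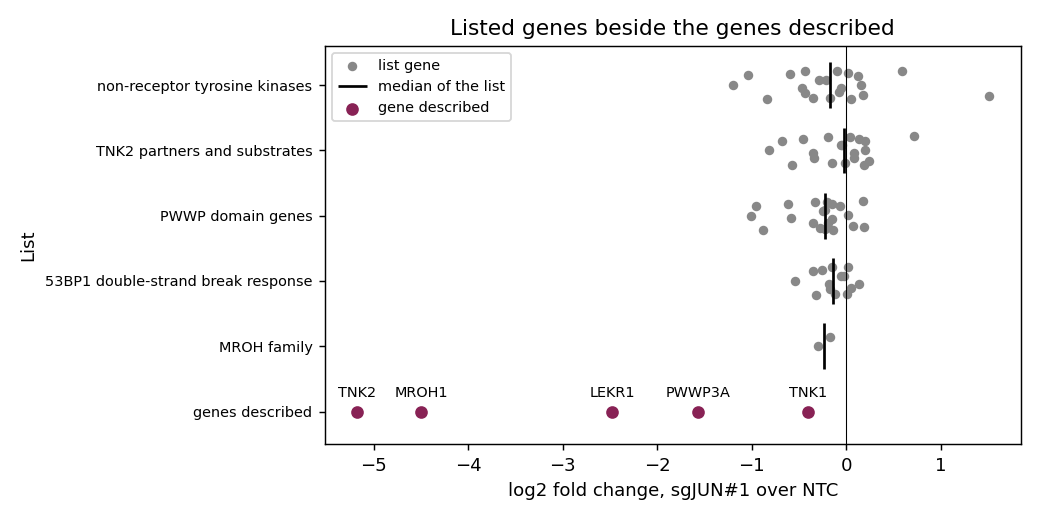
Log2 fold change of sgJUN#1 over NTC (horizontal axis) for the tested genes of 5 lists (grey points, 1 list a line, bar at the median) above the 5 genes described (purple). The lists run from -1.20 to 1.51 with medians from -0.235 to -0.03. TNK2, MROH1, LEKR1 and PWWP3A lie below all of them, a position fixed by their choice for steep falls.

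The genes whose pattern over the 5 libraries was most like each of the 4 were taken by the root mean square difference of log2 CPM after centring, where 0 is the same pattern. These genes were chosen by likeness to a fall and are a description. TNK2 and MROH1 shared the same 3, and the likeness of the pair to each other was 0.523. The 5 genes described were left out of the search. ANKRD1, a muscle ankyrin protein widely used as a YAP target, was the nearest to both among the other genes (0.612 and 0.384). TNK2 lay nearer to MROH1 than to ANKRD1, and MROH1 nearer to ANKRD1 than to TNK2. ANKRD1 was at 118.3, 89.9 and 127.1 CPM in NTC and 5.16 and 5.72 CPM in sgJUN#1. DHRS9, a retinol dehydrogenase (0.903 and 0.766), and SULT1E1, the estrogen sulfotransferase (0.962 and 0.809), followed. In both of these NTC replicate 3 stood highest, with 69.2 CPM against 17.1 and 25.6 for DHRS9 and 173.7 CPM against 35.4 and 60.0 for SULT1E1. TNK2, MROH1, LEKR1, TNK1 and ANKRD1 were also highest in that NTC library, while PWWP3A and JUN were lowest there.

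LEKR1 was nearest to LAMP3, a lysosomal membrane protein (0.219), PLCB4, a phospholipase C (0.225), and LIMCH1, a regulator of myosin II (0.293). PLCB4 had 507.8, 503.5 and 627.7 CPM in NTC and 82.6 and 71.6 CPM in sgJUN#1, whereas LAMP3 had at most 8.14 CPM. PWWP3A was nearest to SCARA3, a scavenger receptor (0.168), IP6K1, an inositol hexakisphosphate kinase (0.1704), and COL18A1, a collagen chain (0.186). IP6K1 had 81.4, 100.1 and 89.6 CPM in NTC and 26.2 and 31.1 CPM in sgJUN#1. LEKR1 and PWWP3A were at 0.645 from each other, while TNK2 was at 1.69 from LEKR1 and 2.28 from PWWP3A. PWWP3A was at 0.753 from TNK1. These distances largely restate the size of the falls by which the 4 were chosen. No other gene in the table had values within 10% of those of TNK2, MROH1, LEKR1, PWWP3A or TNK1 in every library.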

How the data were processed

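RNA of 5 samples of MCF10A SAM cells was sequenced with a QuantSeq 3′ FWD kit. The authors deposited 1 table of whole-number read counts per Entrez gene, not normalised. The submitters' processing notes name cutadapt 4.2, Bowtie2 2.3.5.1 and hg19. The annotation, the use of strand, reads with several matches and molecular identifiers are not given in the sources used here. Symbols came from RefSeq (23308 of 23459 genes) and GRCh37 positions from GENCODE. Genes passing filterByExpr (13616) were fitted in edgeR 4.0.16 (R 4.3.3) with TMM factors, robust quasi-likelihood and group as the only term, with Benjamini-Hochberg adjustment over all of them and a threshold of 0.05. CPM used TMM-scaled library sizes, and 3 counts were 0.601 to 1.22 CPM. The SE is the log2 fold change divided by the root of F. DESeq2 1.42.0 at its defaults, other filters and scalings, a replicate block and leaving out each library were alternatives. Both the members and the lists were chosen with earlier results of these data known. Named genes were the members, JUN, 3 neighbours on each side, the 3 most similar profiles and, for each list without a called gene, the 2 with the largest change and the 2 with the highest level. COL8A1, S100A2, ITGB4, GATA3 and PTK2B were named after their values were seen. Promoter words were chosen without a fixed plan, and all that were searched are given. Numbered replicates were not taken as pairs, because no label names a pairing. The library numbers in the sample descriptions are nonetheless consecutive within replicates 1 and 2. Over genes, the difference between replicates 1 and 2 in NTC had a correlation of 0.0146 with that in sgJUN#1. That value alone cannot decide whether the libraries were paired.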

Additional observations from a re-analysis of the deposited data

How the results depend on the processing

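The 5 log2 fold changes kept their direction in all 12 alternatives: TNK2 ran from -5.26 to -5.11, MROH1 from -4.91 to -4.13, LEKR1 from -2.64 to -2.33, PWWP3A from -1.69 to -1.47 and TNK1 from -0.56 to -0.28. No neighbouring gene and no gene of the 5 role lists (cell type markers aside) passed the threshold in any of them. The number of genes past the threshold, 28 with edgeR, was 136 with DESeq2 at its defaults on the whole table. Run on the genes that edgeR tested, an alternative added after the first DESeq2 count was seen, DESeq2 gave 145. It was 148 with no filter, 18 when every library had to reach 10 counts, and 103 with the replicate block, and leaving out 1 library gave 10 (without NTC replicate 1) to 57 (without NTC replicate 3). The cause was not tested. With the replicate block, which the labels do not show to be a pairing, TNK2 was at -5.11, MROH1 at -4.29, LEKR1 at -2.37, PWWP3A at -1.68 and TNK1 at -0.35, and PA2G4P4 reversed to -0.0064. Leaving out 1 library gave PA2G4P4 from -0.1337 to 0.4664, TIPARP from -0.8308 to 0.0708 and MROH5 from -0.3897 to 0.0728, the ends being the fits without sgJUN#1 replicate 1 or 2. JUN passed the threshold under the replicate block too (log2 fold change 2.82, edgeR adjusted p-value 1.15e-04). As a measure of precision at 20 to 51 counts per library, the 95% interval of TNK1 ran from 0.473 to 1.21 times the NTC level.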
